A study of Homo sapiens with 8 samples.

Results

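The 8 genes ZBTB16, BEST2, STAC2, ALPP, DNAJC15, METTL7A, IP6K3 and GPR1 were near silent in untreated A549 cells and were read at several fragments per kilobase of transcript, scaled to the depth of the library (FPKM), or more after dexamethasone. They were picked from the 19158 genes of the data by their gene names, for an untreated value near 0 and a treated value of several FPKM. The choice used the measured values of both groups, so the difference between untreated and treated cells is described for these 8 genes and is not tested. A549 is an established epithelial cell line from a human lung adenocarcinoma, labelled WT in all samples. Of the 8 RNA-seq libraries, 4 came from untreated wells and 4 from wells that received the synthetic glucocorticoid dexamethasone at 1 µM for 48 h. Replicates are numbered 1, 3, 4 and 5 within each group and share 1 batch label. Each replicate was a culture well of 1 cell line at 1 dose and 1 time. The spread between replicates is that between these wells, with anything else that differed between them. No source says that a replicate number marks a shared set. The libraries held bulk RNA, so that fewer cells of a type and less RNA per cell cannot be told apart.

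Dexamethasone binds the glucocorticoid receptor, a transcription factor of the nuclear receptor family that is held in the cytoplasm until hormone reaches it. The bound receptor enters the nucleus and attaches as a dimer to an imperfect palindrome of AGAACA-like hexamers separated by a short spacer, where it can raise or lower the transcription of genes near and far. In lung epithelium this pathway limits inflammatory gene expression, supports sodium and fluid absorption and promotes maturation, and dexamethasone is widely used to study it in A549 cells. The 8 genes belong to unrelated families: a transcription factor, an anion channel, a calcium channel adaptor, a cell surface receptor, 3 enzymes and a mitochondrial cochaperone.

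The letters of the receptor's palindrome were looked for around each gene, because they show what the DNA near these 8 genes shares or lacks. A 13-base pattern, GNACANNNTGTNC, which reads the same on both strands, was searched within 10000 bases on each side of the 5′ end of each gene. That end is the one of the gene span given with the values (GRCh38), with the strand from GENCODE v44. It occurred near 4 of the 8 genes, and near 22.9% of the 19065 genes searched. The 4 matches are printed 5′ to 3′ on the strand of the gene with 8 bases on each side, and the capitals mark the 13 matching bases.
BEST2, chr19:12748364-12748392, plus strand: gtacagttGCACAGGTTGTGCactggaca
STAC2, chr17:39222295-39222323, minus strand: gtacccggGAACATTCTGTTCcagaggcc
IP6K3, chr6:33746300-33746328, minus strand: gggcacagGAACAGCATGTCCtagcccag
GPR1, chr2:206213532-206213560, minus strand: attaatttGTACAGTATGTTCattgctta
Counted from those 5′ ends, the match of IP6K3 lay closest, 591 bases inside the gene and in an intron. The match of STAC2 was intronic too, 3563 bases inside the gene. The match of GPR1 lay 4501 bases inside the gene and overlapped an annotated exon, and that of BEST2 lay outside the gene, 3324 bases upstream. RefSeq places the start of GPR1 elsewhere, and the inner ACANNNTGT of its match begins 179 bases before that start. No match was found in that window for ZBTB16, ALPP, DNAJC15 or METTL7A, which says only that these letters are not there. A match is a run of letters, and binding was not measured.

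Promoter windows from RefSeq (GRCh38.p14), each of 300 bases from 250 before to 50 after the transcript start, were found for 6 of the 8 genes, with METTL7A under its newer name TMT1A and GPR1 under CMKLR2. IP6K3 is printed because it was alone among the 6 in having the hexamer AGAACA, searched on both strands and present in 10.97% of 15070 promoters. Its stretch before the start follows, with the hexamer in capitals, beginning 105 bases before the start.
IP6K3, chr6:33746906-33747155, minus strand: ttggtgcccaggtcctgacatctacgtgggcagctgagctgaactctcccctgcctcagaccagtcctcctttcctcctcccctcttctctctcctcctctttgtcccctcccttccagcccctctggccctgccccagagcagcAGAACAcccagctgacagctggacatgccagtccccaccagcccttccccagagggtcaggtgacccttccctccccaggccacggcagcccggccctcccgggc
BEST2 is printed as the gene with the highest treated level, and shows the low density of CG pairs described further on. It is the stretch of its promoter window that ends just before the first base of the gene's span, with each CG pair in capitals.
BEST2, chr19:12751541-12751701, plus strand: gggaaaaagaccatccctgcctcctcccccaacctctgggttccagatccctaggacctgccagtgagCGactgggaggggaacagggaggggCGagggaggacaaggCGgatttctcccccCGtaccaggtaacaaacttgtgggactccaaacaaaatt
The IP6K3 stretch of 250 bases held 4 CG pairs and the BEST2 stretch of 161 bases also held 4.

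Each library listed the same 19158 genes, with summed values of 338989 to 373855 FPKM and an estimated 24980000 to 28660000 fragments. The treatment labels were checked on FKBP5, TSC22D3 and PER1, which are textbook glucocorticoid targets; FKBP5 had 5.80 ± 1.78 FPKM (SD, n = 4) untreated and 136 ± 37.6 FPKM (SD, n = 4) after dexamethasone, and neither TSC22D3 nor PER1 overlapped between groups. Untreated replicate 5 stood apart, with 10555 genes at 1 FPKM or more against 11290 to 11378 in the other untreated libraries. Both libraries numbered 5 lay apart on the second principal component (13.1% of the variance), at 22.2 and 15.97 against -12.7 to 2.75. Of the epithelial markers KRT8, KRT18, KRT7, CDH1 and EPCAM, 4 of 5 reached 1 FPKM in some library and EPCAM did not. The lung adenocarcinoma or alveolar markers NKX2-1, SFTPA1, SFTPB, SFTPC and NAPSA all stayed under 1 FPKM, with a highest value of 0.627 FPKM. Of 4 white blood cell markers, 1 reached 1 FPKM, CD68 at 4.03 ± 0.583 FPKM untreated and 2.05 ± 0.203 FPKM treated (SD, n = 4), and PTPRC and CD3E were at 0 in all 8 libraries. Of 4 fibroblast markers, 1 reached 1 FPKM, COL1A1 at 2.03 ± 0.188 FPKM untreated and 0.367 ± 0.0765 FPKM treated (SD, n = 4). COL1A2 was at 0 in all 8 libraries, and DCN was listed at 0 untreated and at 0.178 to 0.355 FPKM treated. The summed levels were 3.65 to 4.88 FPKM untreated and 1.81 to 2.24 FPKM treated for the white blood cell list, and 1.81 to 2.29 FPKM and 0.598 to 0.741 FPKM for the fibroblast list; their part in the results was not tested. Across all genes, limma on log2(FPKM + 1) called 26.8% of 12161 tested genes at a Benjamini-Hochberg adjusted p under 0.05, of which 12.6% of those tested were higher after dexamethasone and 14.2% lower, and the 2 groups did not overlap for 31.5%.

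**Figure D1:**
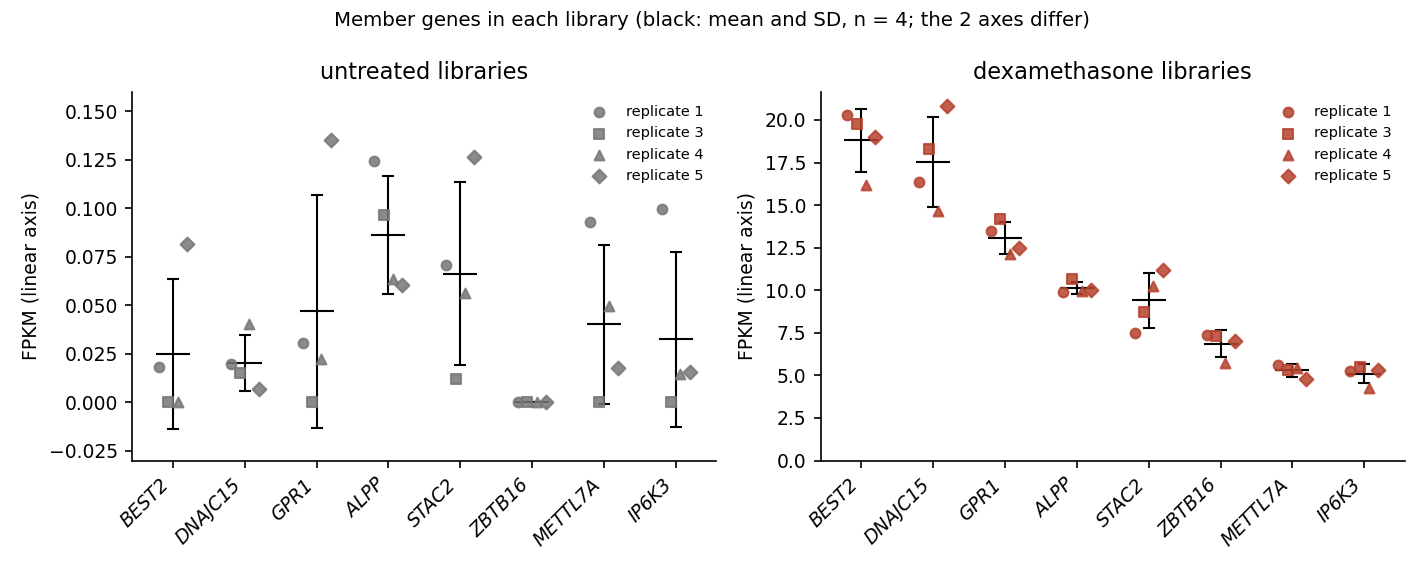
FPKM (linear axes, which differ between the panels) of the 8 genes in each of the 4 untreated libraries (left, grey) and the 4 dexamethasone libraries (right, red), with black lines for the mean and its SD (n = 4). SD bars reach below 0 on the left because the values lie at or close to 0. All untreated values lie at or under 0.135 FPKM, and all values after dexamethasone lie between 4.28 and 20.8 FPKM.

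In all 8 genes the treated libraries lay far above the untreated ones, and no value of one group reached the other, a separation that the choice of the genes fixes and that 31.5% of all tested genes had. Gene spans below are those given with the values (GRCh38), and some start at other bases in GENCODE v44. The highest untreated value of any of them was 0.135 FPKM (GPR1, replicate 5), and the lowest treated value was 4.28 FPKM (IP6K3, replicate 4). FPKM divides by transcript length, so levels can be compared between genes. The summed level of the 8 genes was 0.456, 0.123, 0.247 and 0.444 FPKM in untreated replicates 1, 3, 4 and 5, and 85.7, 89.8, 78.5 and 90.7 FPKM in the corresponding dexamethasone libraries. At the estimated depth, and with the longest annotated transcript as the length, the largest untreated value of a gene stood for about 10.8 fragments (STAC2), and the smallest treated value for about 299 fragments (IP6K3), so the untreated levels are set by a handful of fragments. All 8 genes passed the filter on low values (0.5 FPKM in at least 4 libraries) through the treated group alone.

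ZBTB16, also called PLZF, encodes a BTB domain zinc-finger transcriptional repressor and is among the established glucocorticoid-responsive genes. It was the only one of the 8 listed at 0 in all 4 untreated libraries (ENSG00000109906, chr11:114059593-114250676, plus strand, protein coding). After dexamethasone it read 7.39, 7.34, 5.72 and 7.04 FPKM in replicates 1, 3, 4 and 5, a mean of 6.87 ± 0.781 FPKM (SD, n = 4). Replicate 4 was the lowest and the other libraries lay close together. No fold is given against a group at 0. In the data as a whole 3121 genes were at 0 in all untreated libraries, and 39 of them were above 0 in every treated library; ZBTB16 had the highest treated level of those 39, ahead of HSD11B1 (3.52 ± 0.780 FPKM, SD, n = 4), the enzyme that regenerates active cortisol, and CYP4B1 (3.07 ± 0.625 FPKM, SD, n = 4). Because a listed 0 can be a failed estimate, the untreated value is best read as listed at 0. A pair of antisense noncoding genes overlap ZBTB16 in GENCODE v44, and whether the counting used strand is not stated.

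BEST2 encodes bestrophin-2, a calcium-activated anion channel of epithelia. It had the highest treated level of the 8 (ENSG00000039987, chr19:12751702-12758458, plus strand, protein coding). Untreated replicates 1, 3, 4 and 5 read 0.0181, 0, 0 and 0.0815 FPKM. After dexamethasone the same replicate numbers read 20.3, 19.8, 16.2 and 19.0 FPKM, with a mean of 18.8 ± 1.85 FPKM (SD, n = 4). The lowest treated library was 198 times the highest untreated library, or 892 times without untreated replicate 5. Replicate 4 was again the lowest treated library, and 83.3% of all genes had a lower treated mean than BEST2.

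STAC2 encodes an adaptor with an SH3 domain that binds voltage-gated calcium channels and slows their inactivation. Untreated values were 0.0706, 0.0118, 0.0563 and 0.126 FPKM, a mean of 0.0663 ± 0.0473 FPKM (SD, n = 4; ENSG00000141750, chr17:39210536-39225872, minus strand, protein coding). Treated values were 7.48, 8.74, 10.2 and 11.2 FPKM, a mean of 9.41 ± 1.63 FPKM (SD, n = 4). STAC2 had the widest treated spread of the 8 genes, with a coefficient of variation of 17.3%. Its lowest treated library, replicate 1, was 59.2 times its highest untreated library, replicate 5, and 106 times the next highest. With STAC2, replicate 5 was highest in both groups.

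GPR1, named CMKLR2 in newer annotations, encodes a G protein-coupled receptor for the adipokine chemerin. Untreated replicates read 0.0308, 0, 0.0221 and 0.135 FPKM (ENSG00000183671, chr2:206175316-206218047, minus strand, protein coding). Treated replicates read 13.5, 14.2, 12.1 and 12.5 FPKM, a mean of 13.1 ± 0.928 FPKM (SD, n = 4). Here untreated replicate 5 was the highest untreated library, and the lowest treated library was 89.8 times that value and 393 times the next highest. An antisense noncoding gene, CMKLR2-AS, overlaps GPR1.

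ALPP encodes placental alkaline phosphatase, a lipid-anchored enzyme of the cell surface that is known from trophoblast and from some carcinomas. It had the highest untreated mean of the 8, 0.0863 ± 0.0304 FPKM (SD, n = 4), from 0.125, 0.0966, 0.0636 and 0.0603 FPKM in replicates 1, 3, 4 and 5 (ENSG00000163283, chr2:232378534-232382889, plus strand, protein coding). After dexamethasone the libraries read 9.88, 10.6, 9.94 and 10.01 FPKM, a mean of 10.1 ± 0.358 FPKM (SD, n = 4). These were the most even treated values of the 8 genes, with a coefficient of variation of 3.53%. The ratio of the means was 117, and the lowest treated library was 79.2 times the highest untreated library. ALPP has near-identical copies, among them ALPG 23954 bases away, and how reads that match both were counted is not stated, so the split between ALPP and ALPG is uncertain. An antisense noncoding gene also overlaps ALPP.

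METTL7A, renamed TMT1A, encodes a methyltransferase of the endoplasmic reticulum and lipid droplets that acts on thiol groups. Untreated replicates read 0.0931, 0, 0.0496 and 0.0179 FPKM (ENSG00000185432, chr12:50923472-50932517, plus strand, protein coding). Treated replicates read 5.62, 5.29, 5.44 and 4.80 FPKM, a mean of 5.29 ± 0.355 FPKM (SD, n = 4). The lowest treated library, replicate 5, was 51.5 times the highest untreated library, replicate 1, and 96.7 times the next highest. A second protein-coding gene on the same strand overlaps METTL7A in GENCODE v44, and reads in the overlap could belong to either.

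IP6K3 encodes an inositol hexakisphosphate kinase, which makes inositol pyrophosphates, and is known mainly from muscle and brain. It read 0.0996, 0, 0.0145 and 0.0155 FPKM in untreated replicates 1, 3, 4 and 5 (ENSG00000161896, chr6:33721670-33746905, minus strand, protein coding). Untreated replicate 1 was far above the other untreated libraries. After dexamethasone the values were 5.25, 5.50, 4.28 and 5.33 FPKM, a mean of 5.09 ± 0.549 FPKM (SD, n = 4). The lowest treated library, replicate 4, was 43.0 times untreated replicate 1 and 276 times the next highest untreated library. This was the lowest treated level of the 8, yet it was still above the treated mean of 59.3% of all genes.

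DNAJC15, also called MCJ, encodes a J-domain cochaperone of the inner mitochondrial membrane that takes part in protein import and restrains complex I of the respiratory chain. Untreated values were 0.0195, 0.0149, 0.0406 and 0.00689 FPKM, a mean of 0.0205 ± 0.0144 FPKM (SD, n = 4; ENSG00000120675, chr13:43023203-43114662, plus strand, protein coding). Treated values were 16.3, 18.3, 14.6 and 20.8 FPKM, a mean of 17.5 ± 2.65 FPKM (SD, n = 4). Its lowest treated library was 361 times its highest untreated library, or 750 times without untreated replicate 4, and the ratio of the means was 856. DNAJC15, unlike BEST2, was above 0 in all 4 untreated libraries.

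The order of the treated means was BEST2, DNAJC15, GPR1, ALPP, STAC2, ZBTB16, METTL7A and IP6K3. Ranges over the treated libraries overlapped for 3 neighbouring pairs in that order. BEST2 was above DNAJC15 in 3 of 4 libraries, ALPP above STAC2 in 2 of 4, and METTL7A above IP6K3 in 2 of 4. For the other pairs, DNAJC15 over GPR1, GPR1 over ALPP, STAC2 over ZBTB16 and ZBTB16 over METTL7A, the order was the same in 4 of 4 libraries and the ranges did not overlap. Treated replicate 4 was the lowest of the 4 for 5 of the 8 genes (BEST2, DNAJC15, GPR1, ZBTB16 and IP6K3) and the highest for 0. Without the libraries numbered 5, the treated means were 18.7 FPKM for BEST2, 16.4 FPKM for DNAJC15, 13.3 FPKM for GPR1 and 10.2 FPKM for ALPP. Those of the others were 8.82 FPKM for STAC2, 6.82 FPKM for ZBTB16, 5.45 FPKM for METTL7A and 5.01 FPKM for IP6K3, and the order of all 8 stayed.

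Few genes of the data had such a pattern. An untreated mean under 0.5 FPKM together with a treated mean of at least 2 FPKM was met by 48 of the 19158 genes (0.251%), all protein coding, and the reverse by 30 genes. Both classes rest on group means, so some genes enter through part of the libraries. PPAN-P2RY11, of the 48, read 0, 3.71, 0 and 6.69 FPKM in treated replicates 1, 3, 4 and 5. TOMM6, highest of the reverse class, read 103, 0.00808, 0.00719 and 1.03 FPKM in the untreated replicates. All 8 genes were among the 48, at ranks 4 (BEST2), 5 (DNAJC15), 7 (GPR1), 12 (ALPP), 13 (STAC2), 16 (ZBTB16), 22 (METTL7A) and 26 (IP6K3) by treated mean. Above or among them stood CDH16, a kidney-type cadherin, at 41.3 ± 4.13 FPKM (SD, n = 4), the epithelial sodium channel subunits SCNN1B at 31.2 ± 3.68 FPKM and SCNN1G at 13.1 ± 1.40 FPKM (SD, n = 4), and the acute-phase gene SAA1 at 22.6 ± 4.19 FPKM (SD, n = 4). With stricter limits, under 0.2 FPKM untreated and at least 5 FPKM treated, 15 genes were left, the 8 genes included; among the others were SCNN1B, SAA1, SCNN1G, CYP4F22, SLC7A8 and KRT6A. Just inside that limit lay IP6K3 at 5.09 FPKM. Just outside, among genes as silent in untreated cells, lay C5AR2 at 4.38 FPKM treated and 0.0573 FPKM untreated. Genes in the reverse class, untreated against treated, included IL11, at 12.99 ± 1.63 FPKM and 0.400 ± 0.0715 FPKM, and RASSF10, at 10.3 ± 0.872 FPKM and 0.189 ± 0.0233 FPKM (SD, n = 4).

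**Figure D2:**
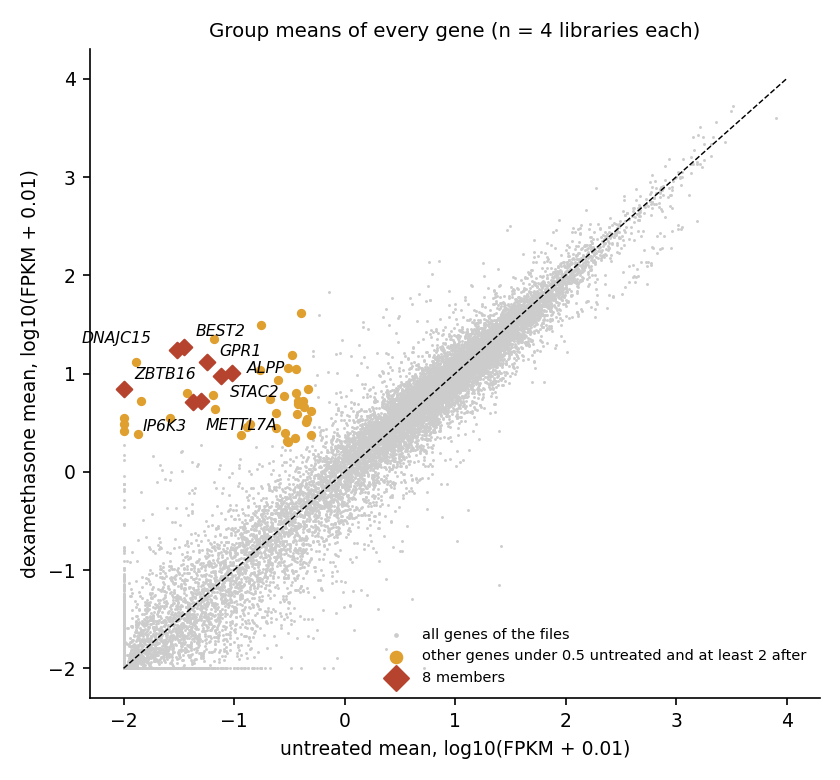
Mean FPKM of all genes in untreated (x) and dexamethasone libraries (y), n = 4 each, as log10(FPKM + 0.01), with the dashed line marking equal means. The 8 genes (red diamonds) and the other genes under 0.5 FPKM untreated and at least 2 FPKM treated (orange) form a sparse group at the upper left, 48 genes in all, and ZBTB16 sits on the left edge at 0.

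The genes most like each of the 8 came mostly from the same small group. Likeness was the mean absolute difference in log2(FPKM + 1) over the 8 libraries, where 0 would be identical values. Each gene was compared only with genes outside the 8, so another of the 8 can be closer than the genes named here. The closest of the pairs compared was GPR1 and SCNN1G, at 0.0485. ZBTB16 was closest to CYP4F22, a fatty acid hydroxylase, at 0.066, and METTL7A to the amino acid transporter SLC7A8 at 0.118. IP6K3 was closest to the complement receptor C5AR2 at 0.113. Among the 3 genes most like ALPP were the cell cycle inhibitor CDKN1C at 0.223 and SCNN1G at 0.224, and among the 3 most like STAC2 were SCNN1G at 0.265 and CYP4F22 at 0.277. Outside the 8, BEST2 was closest to SAA1 at 0.179, and DNAJC15 to SCNN1G at 0.21. SGPP2 was among the 3 most like both, at 0.353 for BEST2 and 0.338 for DNAJC15. It lay just outside the small group, with an untreated mean of 0.504 FPKM. These distances describe levels and were fixed largely by the choice of near-silent genes.

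The relatives and working partners of the 8 genes were not used in choosing them, and 8 lists of these were read from the fit over all genes. Of 137 listed genes found, 94 were tested, and limma called 12 higher and 10 lower after dexamethasone (23.4%, against 26.8% of all tested genes). Of the 15 closest relatives, 7 were tested and 1 was called, BCL6. Without both libraries numbered 5 the lists gave 20 higher and 12 lower (33.7%), when 45.2% of all tested genes were called. The other 8 closest relatives, BEST3, BEST4, STAC3, ALPL, ALPI, ALPG, CMKLR1 and ZBTB32, were under 1 FPKM in every library and were too low to test.

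**Figure D3:**
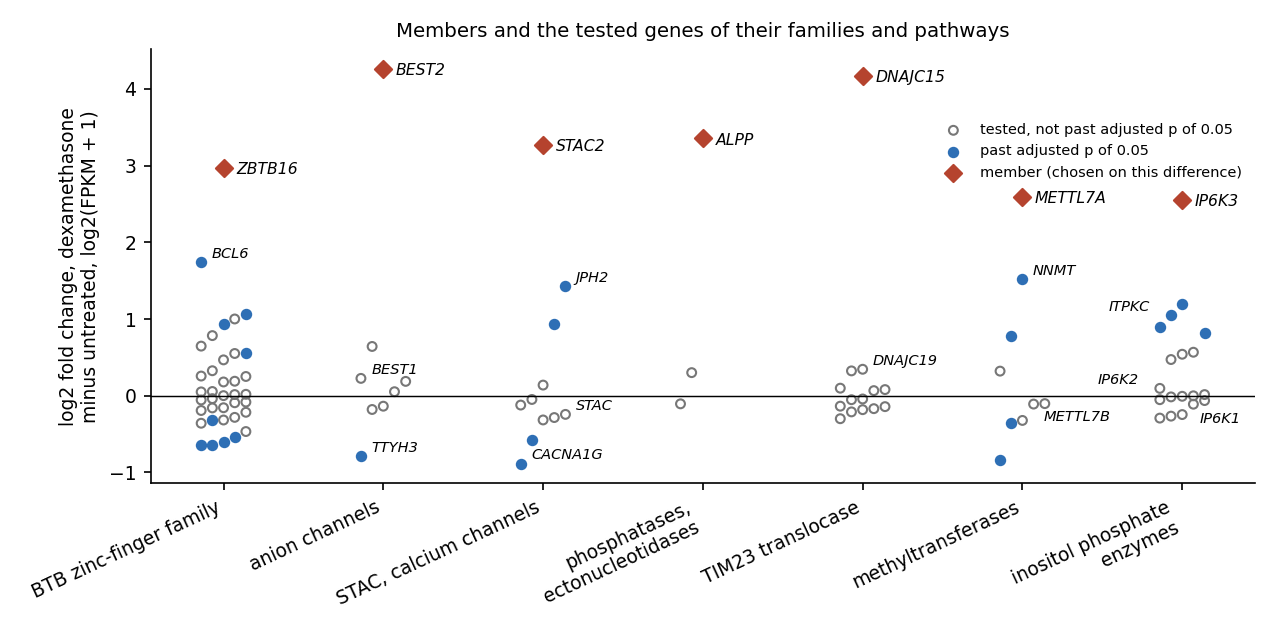
The log2 fold change (dexamethasone minus untreated, log2(FPKM + 1), 4 libraries each) of the tested genes of 7 lists, with filled blue points for genes past an adjusted p of 0.05 (limma) and red diamonds for the gene each list was built around, chosen on this difference. GPR1 is not drawn because none of its 3 listed partners was tested. Every relative lies below its red diamond; BCL6, at 1.74, is the highest of them.

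ZBTB16 belongs to the BTB zinc-finger family. Of 40 family members and partners found, 36 were tested, and 4 were called higher and 5 lower (25%, against 26.8% of all tested genes). Their median log2 change was 0.01, the same as over all tested genes. BCL6, the family's lymphoid repressor and a partner of the same corepressors, rose from 3.22 ± 0.309 to 13.1 ± 0.796 FPKM (SD, n = 4), by 1.74 on the log2 scale (SE 0.108, limma adjusted p = 4.33e-06). ZBTB20 rose by 0.55 (adjusted p = 0.00864), but not past the threshold once a trend with GC content was removed (adjusted p = 0.178). HIC2 fell by 0.60 and PATZ1 fell by 0.64 on the log2 scale (adjusted p = 0.0007 and 0.0133). CUL3, the ubiquitin ligase scaffold that BTB proteins can recruit, had 14.2 FPKM untreated and 15.98 FPKM treated and was not called (adjusted p = 0.364).

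For BEST2, 17 bestrophins and other anion channels were found and 7 were tested. Limma called 0 higher and 1 lower (14.3%, against 26.8% of all tested genes), or 1 higher and 1 lower at an unadjusted p under 0.05. BEST1 read 2.50 FPKM untreated and 3.04 FPKM treated (log2 change 0.23, limma adjusted p = 0.569), and BEST4 stayed near 0 in both groups, at 0.0217 and 0.0277 FPKM. TTYH3, a tweety-family chloride channel gene, fell from 43.3 ± 1.75 to 24.7 ± 2.05 FPKM (SD, n = 4), by 0.79 on the log2 scale (adjusted p = 0.00508).

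For STAC2, 10 of the 22 listed relatives and calcium channel genes were tested. Its relative STAC had 1.71 FPKM untreated and 1.29 FPKM treated (log2 change -0.24, limma adjusted p = 0.149), and STAC3 was near 0 at 0.0838 and 0.215 FPKM. Called higher were JPH2, junctophilin 2, which tethers the plasma membrane to the endoplasmic reticulum, and CACNA2D3, an auxiliary calcium channel subunit. JPH2 went from 1.21 ± 0.272 to 4.97 ± 0.589 FPKM (SD, n = 4; log2 change 1.43, adjusted p = 0.000165), and CACNA2D3 from 0.0632 ± 0.0617 to 1.05 ± 0.212 FPKM (SD, n = 4; log2 change 0.94, adjusted p = 9.52e-05). CACNA1G, a T-type channel pore, fell by 0.88 (adjusted p = 0.000718), and the calcium release channel RYR1 fell by 0.58 (adjusted p = 0.00235, or 0.075 with the GC trend removed).

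Among the relatives of ALPP, ALPG had a pattern like that of ALPP at a lower level: 0.00397, 0.0232, 0 and 0.0487 FPKM untreated, and 0.286, 0.163, 0.402 and 0.34 FPKM treated. ALPG did not pass the filter and was not tested, and reads shared with ALPP may contribute to it, which was not tested. The liver, bone and kidney form ALPL went the other way, with 0.187, 0.145, 0.13 and 0.264 FPKM untreated and 0, 0.0438, 0.0285 and 0.0406 FPKM treated, also too low to test. The intestinal form ALPI was listed at 0 in all 8 libraries. Of 13 phosphatases and ectonucleotidases found, 2 were tested and 0 were called by limma, nor had either an unadjusted p under 0.05.

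DNAJC15 works beside the TIM23 presequence translocase, and all 13 listed subunits and motor proteins found were tested. Limma called 0 of them in either direction, against 26.8% of all tested genes, with 1 higher at an unadjusted p under 0.05. Log2 changes lay between -0.30 and 0.35. The highest belonged to DNAJC19, the closest relative of DNAJC15, at 4.28 FPKM untreated and 5.73 FPKM treated (log2 change 0.35, adjusted p = 0.0919). Its groups did not overlap, and the call was made without untreated replicate 5 (adjusted p = 0.0234), without both libraries numbered 5 (adjusted p = 0.0194), and with no scaling between libraries (adjusted p = 0.0491).

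For METTL7A, 8 of 10 listed small-molecule methyltransferases were tested, with 2 called higher and 2 lower (50%, against 26.8% of all tested genes). The difference in share was not tested. METTL7B, its closest relative, had 8.80 FPKM untreated and 8.12 FPKM treated (log2 change -0.11, limma adjusted p = 0.593), so that METTL7B, unlike METTL7A, was expressed in untreated cells. NNMT, which methylates nicotinamide, rose from 60.4 ± 14.8 to 174 ± 21.8 FPKM (SD, n = 4), by 1.52 on the log2 scale (SE 0.249, adjusted p = 0.00173). HNMT, which inactivates histamine, rose by 0.78 (adjusted p = 0.0103, or 0.154 with the GC trend removed). AS3MT and GAMT fell by 0.36 and 0.84 (adjusted p = 0.0243 and 0.0466). AS3MT was not called without untreated replicate 1 or 3 or dexamethasone replicate 1 or 4 (0.0573 to 0.0768), nor GAMT without untreated replicate 1 or 4 or dexamethasone replicate 1, 3 or 4 (0.057 to 0.131).

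For IP6K3, 18 of 19 inositol phosphate enzymes were tested, and limma called 4 higher and 0 lower (22.2%, against 26.8% of all tested genes). At an unadjusted p under 0.05 the counts were 5 and 1. The other inositol hexakisphosphate kinases were already expressed: IP6K1 had 15.4 and 14.1 FPKM and IP6K2 had 16.01 and 17.2 FPKM, untreated and treated (limma adjusted p = 0.726 and 0.667). IPMK, which makes the precursors of inositol hexakisphosphate, rose from 0.918 ± 0.521 to 3.34 ± 1.14 FPKM (SD, n = 4; log2 change 1.20, adjusted p = 0.00381). ITPKC, an inositol trisphosphate kinase, rose from 8.63 ± 0.521 to 19.1 ± 1.36 FPKM (SD, n = 4; log2 change 1.05, adjusted p = 0.000855). PPIP5K2 and NUDT4, which make and remove inositol pyrophosphates, were called at adjusted p = 0.0389 and 0.0354, with groups that overlap. PPIP5K2 was not called without any one of untreated replicates 1, 4 and 5 or dexamethasone replicates 1, 4 and 5 (0.0559 to 0.108). NUDT4 was not called without untreated replicate 1, 4 or 5 or dexamethasone replicate 3 or 5 (0.0557 to 0.0983).

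The partners of GPR1 were at or near 0. CMKLR1, the main chemerin receptor, was listed at 0 in all 8 libraries. RARRES2, the chemerin gene, had means of 0 and 0.0153 FPKM, and CCRL2, a receptor that presents chemerin, 0.018 and 0.0121 FPKM. GPR1 at 13.1 FPKM was the only gene of this group read above 1 FPKM.

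Genes next to the 8 on the chromosome were examined because they were not used in the choice either. Within 250 kb of the 8 genes lay 76 genes of the data, of which 52 were tested, 6 were called higher and 3 lower (17.3%, against 26.8% of all tested genes). With no scaling between libraries the split was 5 higher and 4 lower, with the GC trend removed it was 7 and 8, and without both libraries numbered 5 it was 10 and 7 (32.7%, against 45.2% of all tested genes). STAC2 and ALPP had 0 neighbours called by limma among 5 and 4 tested, and 0 at an unadjusted p under 0.05.

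NNMT was the nearest neighbour of ZBTB16, 7111 bases past its 3′ end, and was itself among the rising genes of the methyltransferase list (48.0, 56.2, 55.5 and 81.9 FPKM untreated, 161, 166, 162 and 206 FPKM treated). ENOX1, a cell surface oxidase gene 98856 bases from DNAJC15, was low in untreated cells at 0.229, 0.374, 0.295 and 0.287 FPKM. It reached 1.82, 2.29, 2.28 and 1.62 FPKM after dexamethasone (log2 change 1.20, limma adjusted p = 1.8e-05) and was thereby the lowest of the 48 genes of the wider class. ITPR3, a calcium release channel gated by inositol trisphosphate, lies 25096 bases from IP6K3 and rose from 22.7 ± 0.952 to 51.2 ± 5.22 FPKM (SD, n = 4; log2 change 1.13, adjusted p = 0.000528). LEMD2, a nuclear envelope protein gene on the other side of IP6K3 at 24297 bases, fell by 0.69 (adjusted p = 0.0117).

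Near BEST2, RNASEH2A, a subunit of ribonuclease H2 at 48098 bases, fell by 1.497 (limma adjusted p = 0.00395), and NFIX, a transcription factor gene at 237150 bases, fell by 0.98 (adjusted p = 0.00225). JUNB, an AP-1 subunit 33038 bases from BEST2, was called higher at the edge of the threshold (log2 change 0.61, adjusted p = 0.0493). LETMD1, a mitochondrial membrane protein gene 115445 bases from METTL7A, rose by 0.61 (adjusted p = 0.00682). NDUFS1, a complex I subunit 15713 bases from GPR1, was called higher at adjusted p = 0.0491. JUNB was not called when any library other than untreated replicate 5 was left out (0.0665 to 0.115), nor NDUFS1 when any library other than dexamethasone replicate 5 was left out (0.0568 to 0.138). All 6 neighbours called higher lay on the 3′ side of their gene, where 31 of the tested neighbours were, against 0 of the 21 tested on the 5′ side; this was noticed after the values were seen and was not tested.

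**Figure D4:**
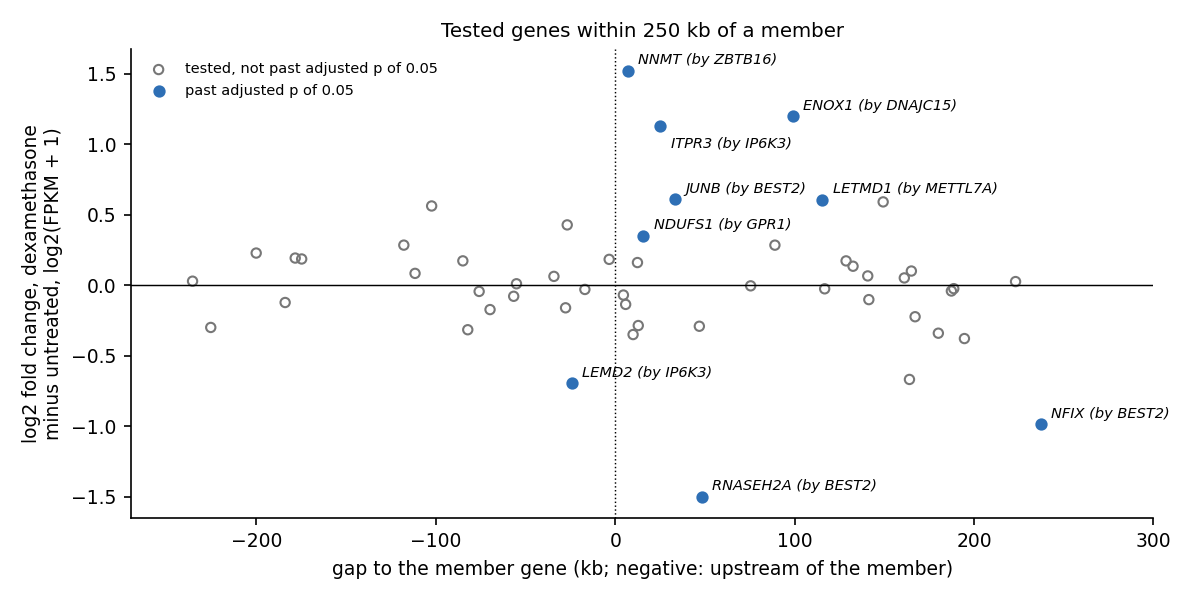
The log2 fold change (dexamethasone minus untreated, log2(FPKM + 1), 4 libraries each) of the 52 tested genes against their gap in kb to the nearest edge of the gene they neighbour, with negative gaps on its 5′ side. Filled points are past an adjusted p of 0.05 (limma); those above 0 are NNMT, ITPR3, ENOX1, JUNB, LETMD1 and NDUFS1, all to the right of the dotted line.

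The promoters of most of the 8 genes were poor in CG pairs. CpG observed over expected compares the CG pairs in a window with the number its C and G content would give. It was 0.211 for METTL7A and for IP6K3, 0.217 for ALPP, 0.224 for GPR1, 0.321 for BEST2 and 0.891 for DNAJC15. The windows of METTL7A, GPR1 and DNAJC15 lie wholly inside the gene spans given with the values, where RefSeq places the start further in. For METTL7A and DNAJC15 all bases of the window before that start are in annotated exons. Over 15070 promoters of genes in the data the median was 0.773 and 67.6% reached 0.6, as 1 of the 6 promoters did. Genes with an untreated mean under 0.5 FPKM were a closer comparison, since all 8 genes are of that kind: of their 5204 promoters 34.3% reached 0.6, with a median of 0.366. Among the 48 genes of the wider class, 9 of the 32 with a promoter reached 0.6, with a median of 0.363. The low CpG content of these promoters was near that of other genes silent in untreated A549 cells.

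**Figure D5:**
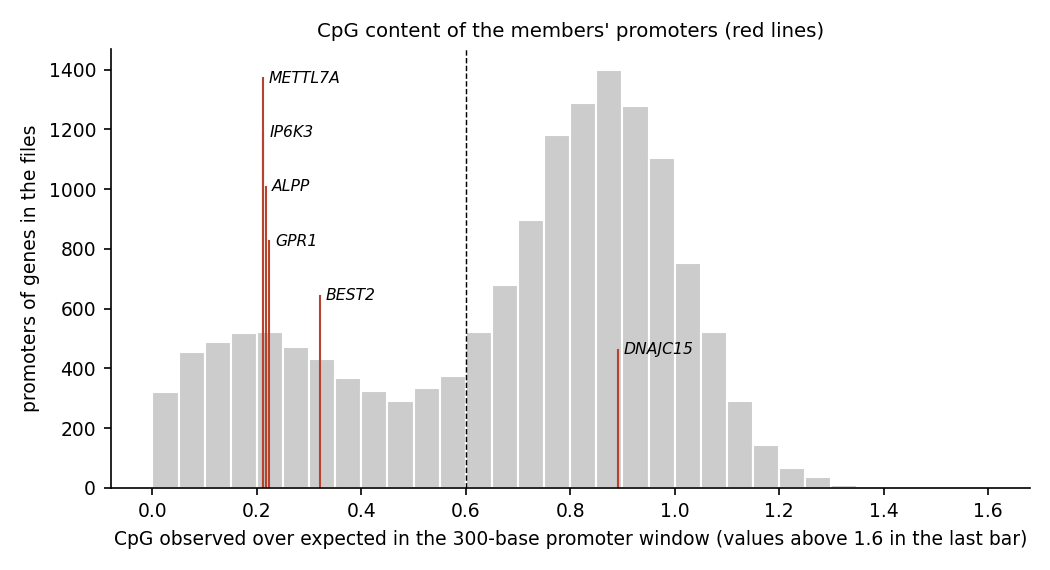
Histogram of CpG observed over expected in the 300-base windows of 15070 promoters of genes in the data, with red lines at the values of the 6 genes found and a dashed line at 0.6. METTL7A, IP6K3, ALPP, GPR1 and BEST2 lie in the lower hump (0.211 to 0.321) and DNAJC15 in the upper one (0.891).

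Within those windows the shorter core ACANNNTGT, present in 3.74% of promoters, was found only for GPR1, 179 bases before its RefSeq start. It is the middle of the GPR1 match printed above, and the full 13-base pattern occurs in 0.259% of promoters. The TATAAA box on the sense strand, present in 6.66% of promoters, was found for DNAJC15 alone. Within 10000 bases the 13-base pattern occurred for 17 of the 48 genes of the wider class (35.4%), against 22.9% of all genes. The 48 include the 8 genes, 4 of which had a match. The share among genes silent in untreated cells was not counted, and the difference was not tested.

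Markers of tissues in which some of these genes are known were read in the same libraries. IP6K3 is known from skeletal muscle: 0 of 9 muscle markers reached 1 FPKM, their sum lay between 0.0267 and 0.194 FPKM untreated and between 0.0059 and 0.44 FPKM treated, and CKM, MYH2, MYOG, MYOD1 and TNNT3 were at 0 in all 8 libraries. ALPP is known from placenta: 1 of 9 trophoblast markers reached 1 FPKM, PAPPA, a secreted protease, which rose from 15.0 ± 4.25 to 44.3 ± 9.10 FPKM (SD, n = 4; log2 change 1.53, limma adjusted p = 0.000218). The summed trophoblast level, nearly all PAPPA, was 9.25 to 18.5 FPKM untreated and 32.4 to 53.5 FPKM treated, while CGA and CSH1 were at 0 in all libraries. HSD3B1, a steroid enzyme of the same list, read 0 to 0.0237 FPKM untreated and 0.129 to 0.265 FPKM treated and was too low to test. The rest of the list did not rise with it. KISS1 had means of 0.296 FPKM untreated and 0.131 FPKM treated, and GCM1 and PSG3 were at 0 in every treated library. Means of PSG1 were 0.118 and 0.156 FPKM and those of ERVW-1 0.00646 and 0.00523 FPKM, with overlapping groups. These were also too low to test. The part of these markers in the ALPP values was not tested.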

How the data were processed

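RNA from 4 untreated and 4 dexamethasone-treated A549 wells was depleted of ribosomal RNA and sequenced as read pairs, per the labels' protocols. Per the series' design text and the submitters' processing notes, the authors used FastQC 0.11.9, Cutadapt 3.4, STAR 2.7.9a on GRCh38, featureCounts (Subread 2.0.3) and DESeq2 1.32.0. Neither the annotation release nor the strand setting is given in the sources used here. The deposited values were read as FPKM: the authors' files describe them as counts, but they are not whole numbers, and the step that made them is not stated. Fragments per library were estimated from the steps between low values (24980000 to 28660000). Only 40.2% to 46.5% of such values lay within 0.1 of a whole fragment, against 20% by chance, so no count test was run.

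The 8 genes and all lists were chosen with earlier results of these data known. From the deposited FPKM, each library was divided by an unweighted TMM-type factor (trimmed mean of log ratios, with 0.3 of ratios and 0.05 of levels trimmed on each side). For genes with 0.5 FPKM or more in 4 or more libraries, log2(FPKM + 1) was compared by limma 3.58.1 under R 4.3.3 (eBayes with trend and robust, two-sided, Benjamini-Hochberg over all genes tested). Levels are the deposited FPKM without this scaling. A fold change on this scale understates that of low genes. The fitting code was first tested on simulated data.

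Genes named in the text are the 8 genes, their closest relatives, CUL3 and RARRES2, up to 4 called genes of each list with the smallest p, the nearest and the called neighbours within 250 kb, the highest genes of the 48 and of the reverse class, and the most similar genes. Not all genes this rule selects are printed. C5AR2, KRT6A, CYP4F22 and SLC7A8 complete counts or distances, and PPAN-P2RY11 is an example of a gene of the 48 with uneven treated libraries. Strands, newer symbols, transcripts and exons were taken from GENCODE v44 by gene identifier (19065 of 19158 genes). Gene spans are those given with the values. Alternatives were another pseudocount (0.1), other filters, no scaling, median-ratio scaling, removal of a GC trend, the replicate number as a block, and leaving out libraries.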

Additional observations from a re-analysis of the deposited data

Results flagged for a closer look

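In groups of 4 libraries, 1 library lay far from the other 3 in 4 of the 114 groups examined; chance gives about 1 in 20. IP6K3 read 0.0996 FPKM in untreated replicate 1 against 0 to 0.0155 FPKM in the other untreated libraries, a value of few fragments. NNMT, the neighbour of ZBTB16, read 206 FPKM in dexamethasone replicate 5 against 161 to 166 FPKM in the other treated libraries. RNASEH2A, a neighbour of BEST2, read 48.9 FPKM in untreated replicate 5 against 28.7 to 30.4 FPKM. RPL19, the ribosomal protein gene next to STAC2, read 1227 FPKM in untreated replicate 5 against 1033 to 1064 FPKM. Of these 4 values, 3 are in the libraries numbered 5, which also stood apart over all genes.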

How the results depend on the processing

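Of 112 levels of the 8 genes recomputed under other scalings or without libraries, 0 moved by over 1 SD. Leaving out 1 of 4 libraries cannot move a mean by over 1 SD, so only the other scalings could have done so. The 48 genes near 0 untreated became 15 under the stricter limits, all 8 genes included, and 45 to 54 when 1 library was left out. Calls over all genes (3258) came to 5738 with the replicate block and 5534 without both libraries numbered 5, and to 2285 to 3876 when 1 library was left out. Calls among relatives and partners (22) came to 38 with the block and 15 to 26 when 1 library was left out. Calls among neighbours (9) came to 15 with the GC trend removed, 16 with the block, 17 without both libraries numbered 5, and 7 to 10 when 1 library was left out. The cause was not tested. No source says that a number marks a shared set. With the group means removed, deviations of same-numbered libraries correlated at 0.294, 0.0671, 0.315 and 0.713 for replicates 1, 3, 4 and 5, and not every library correlated best with its own number, so the rule for a blocked fit (every pair over 0.1) was not met; a shared origin of the libraries numbered 5 was not tested. No called gene shared with the reported fit changed direction in any setting. Of 636 values of 40 named genes, 570 kept their direction and side of the threshold, 50 lost the call, 8 gained it and 8 changed sign, all of these uncalled: CUL3 at -0.124, METTL7B at 0.0603, IP6K1 at 0.0718 and HOOK2 at 0.186 with the GC trend removed, and 4 genes when 1 library was left out, where log2 changes ran from -0.0319 (without untreated replicate 4) to 0.413 for BEST1, from -0.25 to 0.0682 (without untreated replicate 5) for IP6K1, from -0.17 to 0.0037 (without untreated replicate 5) for HOOK2 and from -0.165 to 0.0217 (without dexamethasone replicate 5) for ZDBF2. Untreated levels of the 8 genes rest on few fragments, so ratios to them are imprecise.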
